A study of Schmidtea mediterranea with 6 samples.

Results

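The sites described here are poly(A) sites of the planarian Schmidtea mediterranea whose signal was higher in differentiated cells than in stem cells, with less than 50% of the log2 difference present in the intermediate X2 gate. They were chosen from the measured values. A site was a member when its signal was well above background on both Xins arrays and on at least 1 X1 array. In addition, the mean of Xins had to exceed that of X1 by 1.5 or more on the log2 scale, and X2 minus X1 had to lie from 0 to under 0.5 of Xins minus X1. This left 126 of 5054 sites (2.49%), on 124 contigs, with 66 on the plus strand and 60 on the minus strand. All 3 differences between gates were used to choose the members, so these differences are given as a description and support nothing.

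The series holds 6 one-colour arrays, 2 for each of 3 cell populations sorted by flow cytometry from the sexual strain. The labels call the X1 gate stem cells, and the series' design text calls X2 progenitor and Xins differentiated cells. The labels state that the RNA had no specific treatment and give no genotype or age. Whether the replicates of a gate are separate worms or separate sorts is not stated, so the p-values reflect only how far these arrays differ, in part perhaps for technical reasons. Every signal is a log2 intensity set against its array's 75th percentile, and means ± SD are over n = 2 arrays.

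Planarian stem cells, the neoblasts, divide throughout adult life and replace the cells of every tissue. The X1 and X2 gates are lost after irradiation, whereas the Xins gate is insensitive to it. X1 holds cycling stem cells, X2 mixes stem cells of lower DNA content with early non-dividing progeny, and Xins holds mature cells of many types. A poly(A) site is where a transcript is cleaved and given its tail, usually a short distance after the hexamer AATAAA or a variant such as ATTAAA. A signal here comes from transcripts that hold the probe's sequence, and where each of them ended was not measured. In these bulk samples, fewer cells of a type and less RNA per cell cannot be told apart, and a change in the use of a site cannot be told apart from a change in the level of its gene. The files pair no transcript model with a gene name, so no marker of a cell type could be checked, the purity of the gates was not measured here, and no role is given to any site.

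The probes below show what was measured at the members on which the description turns. Each is the last 30 bases of a probe, 5′ to 3′ in the sense of the transcript. Capitals mark AATAAA or ATTAAA, in the copy nearest the 3′ end, where the hexamer starts 10 to 35 nt from that end. The first 5 belong to the members with the largest Xins minus X1.
OX_Smed_1.0.03368: ctgtcgaaaaacttgtagaaaatgttatga
mk4.000401.10.01: aaatatattttggattgtgtcaccgttgta
OX_Smed_1.0.23231: attttAATAAActtttttatttaaatattt
dd_smedV4_566_0_1: taatgcaaaatgatttagtgAATAAAtgtg
mk4.003138.03.01: acatttacttacttttattgaacaacttga

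The next 3 belong to members at which X2 was nearly level with X1. The letters at the very end of dd_smedV4_950_0_1 start too close to the end to count.
dd_smedV4_950_0_1: actttcaataggtattttaatgctaataaa
dd_smedV4_364_0_8: tagATTAAAgttttaaatttgttgtttggt
OX_Smed_1.0.23066: tagaatatttctgtcaatctttcttgatca

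The last 6 are 3 pairs of members on different contigs whose probes share long runs of bases.
OX_Smed_1.0.06971: gatggactttattagatctgaattatagaa
mk4.006902.04.01: atggactttattagatctgaattatagaaa
mk4.011129.00.01: agaagattcatttatataaaAATAAAttta
mk4.014181.00.01: gattcatttatataaaAATAAAtttaatta
dd_smedV4_15365_0_1: caaatgctgctgttcAATAAAgaaataaaa
dd_smedV4_4905_0_1: tgttcaataaagaAATAAAaaatatttgtt

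The array carried 10902 probes with 5406 distinct sequences of 45 to 60 nt. An array detected 23.1% to 28.5% of them well above background. Of the 5054 sites, 1008 passed the detection limits above, and 247 of these (24.5%) had Xins minus X1 of 1.5 or more. The 126 members made up 51% of those 247 sites. Another 74 had X2 at 0.5 or more of the difference and are called early-gain sites here. The remaining 47 had X2 below X1. The plot of both differences shows the members as a wedge between these other sites, with no gap at either edge.

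**Figure D1:**
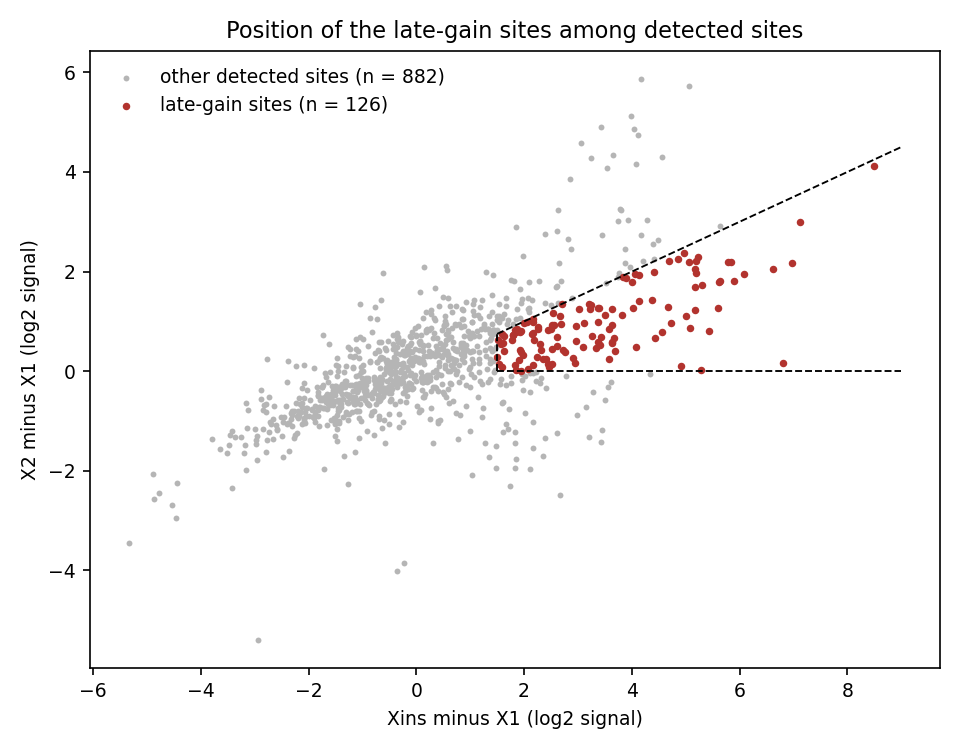
Xins minus X1 (x axis) against X2 minus X1 (y axis), both in log2 signal, for the 1008 sites passing the detection limits. Red points are the 126 late-gain sites and grey points the other 882, and dashed lines are the limits of the rule. Members reach 8.50 on the x axis and 4.12 on the y axis, and sites lie on both sides of each limit.

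Seen as levels, the members were dim in X1, a little brighter in X2 and much brighter in Xins. Their median signal was -3.93 and -3.79 on the 2 X1 arrays, -2.55 and -2.97 on the X2 arrays, and -0.31 and -0.53 on the Xins arrays. The 3 gates overlapped widely in range, since the mean signal of a member ran from -6.91 to 3.95 in X1, from -6.20 to 5.23 in X2 and from -4.49 to 7.97 in Xins. In linear terms the median member was 8.93-fold higher in Xins than in X1 and 1.79-fold higher in X2 than in X1. The median X2 signal was 21.7% of the Xins signal on the linear scale, with a range of 1.0% to 56.2%.

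The rise from X1 to Xins spanned 2.83-fold to 362-fold. It was at least 4-fold in 101 members, at least 16-fold in 39 and at least 32-fold in 23. On the log2 scale, Xins minus X1 had a median of 3.16 and quartiles of 2.18 and 4.42, against a median of -0.17 over the 1349 sites tested. The members' median was 1.38 after normexp background correction of the unprocessed signal, with an offset of 50, and quantile normalization. These parts of that setting change together, and the part of each was not tested. The spread between arrays was smaller than the rise in most members, with a median SD of 0.37 in X1, 0.38 in X2 and 0.45 in Xins. Both Xins arrays lay above both X1 arrays in 123 of the 126 members, against 39.6% of the sites passing the detection limits. The rule used this contrast, so nothing is read from the difference.

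The step from X1 to X2 was under 0.5 of the rise from X1 to Xins in every member, as the rule requires. X2 minus X1 had a median of 0.84 and quartiles of 0.49 and 1.29, against -0.02 over all sites tested. The members' median was 1.45 when arrays were scaled by their spike-in control spots, where that of all sites was 0.59, and 0.17 after normexp with quantile normalization. X2 minus X1 was 1 or more in 46 members and under 0.5 in 33. The X2 and X1 arrays overlapped in 46 members, while both X2 arrays lay above both X1 arrays in the other 80, against a background of 31.1%. The step from X2 to Xins had a median of 2.20, against -0.27 over all sites tested, and both Xins arrays lay above both X2 arrays in 116 members, against a background of 29.2%.

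The share of the log2 difference already present in X2, called the X2 position below, had a median of 0.31 and quartiles of 0.17 and 0.41. The median was 0.501 with spike-in scaling, just past the limit of the rule, and 0.184 after normexp with quantile normalization. The position was under 0.1 in 16 members, from 0.1 to under 0.4 in 76 and 0.4 or more in 34. The members were therefore spread over the whole range that the rule allows. The position was not a precise quantity for a single site. Computed from replicate 1 of each gate alone, it lay from 0 to under 0.5 in 104 members, below 0 in 5 and at 0.5 or more in 17. From replicate 2 alone, the counts were 100, 14 and 12. Both replicates fell in the range at 82 of the 126 members, and the median absolute difference between replicates was 0.11. Across the 126 members the positions of replicates 1 and 2 had a Pearson's r of -0.15 and a Spearman's rho of 0.20. Without 12 members whose Xins arrays differed widely, described below, r was 0.31 and rho 0.43. Members are not independent replicates, and within a replicate both values come from the same 3 arrays.

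**Figure D2:**
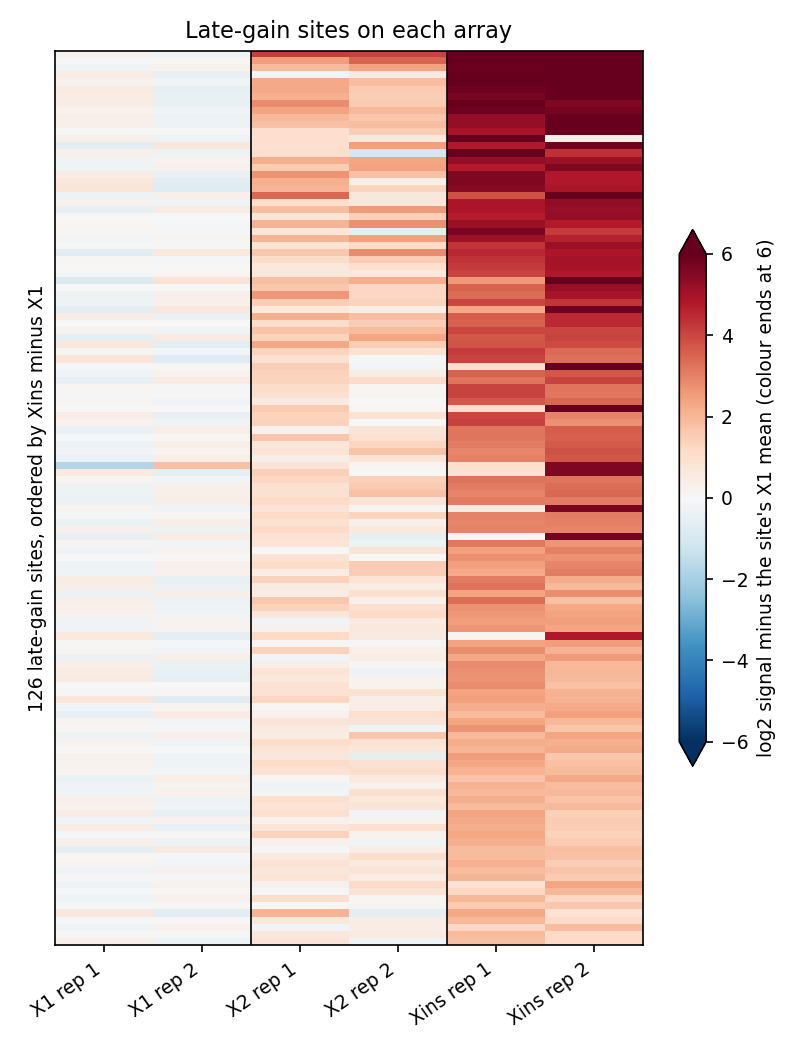
Log2 signal of the 126 late-gain sites (rows, ordered by Xins minus X1) on each of the 6 arrays (columns), minus the site's mean over the X1 arrays. Red is higher and blue is lower, and the colour ends at 6. The X2 columns are paler than the Xins columns in nearly every row, and a few rows are dark on 1 Xins array only.

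All members were tested together with the other sites in a limma model of the 6 arrays (Benjamini-Hochberg adjustment over 1349 sites, threshold 0.05). For Xins against X1, 116 of the 126 members were called higher, against 24.6% of all sites tested. For Xins against X2, 84 members were called, against 14.2%. Fewer were called without either X2 array, among the members and among all sites. The members' median Xins minus X2 was then 2.32 without X2 replicate 1 and 2.14 without X2 replicate 2. For X2 against X1, 9 members were called, against 4.67%. With the row of the slide as a block, 19 were called, against 87 of the 1349 sites. No member was called lower in any of the 3 contrasts. These shares follow from the choice of members and are not evidence about them.

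The 9 members called for X2 against X1 rose at both steps, since all 9 were also called for Xins against X2. They are named for that reason, after their values were seen. OX_Smed_1.0.03368 rose most in X2, by 4.12 (SE 0.57, limma adjusted p = 0.0173). The smallest called difference was 1.8, at mk4.008312.00.01 (Contig8312, plus strand, 2165 to 2255). Between these lay mk4.000401.10.01, dd_smedV4_4905_0_1, mk4.024683.00.01, dd_smedV4_15365_0_1, mk4.000610.08.01, dd_smedV4_1_0_1 and mk4.003138.03.01. The calls at this step depended on every array compared, among the members and among all sites tested. With 1 X1 or X2 array left out, few or none of the members' calls remained. Such a fit leaves 1 array in a gate, so the loss is not particular to the members. The members' median X2 minus X1 was 0.78 to 0.96 in these fits.

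The largest rise was at OX_Smed_1.0.03368 (Contig1945, plus strand, 2917 to 2983). Its signal was -2.83 and -3.47 on the X1 arrays, 1.01 and 0.93 on the X2 arrays, and 4.58 and 6.13 on the Xins arrays. The gates did not overlap, and X2 stood close to midway between them on the log2 scale, at a position of 0.48. On the linear scale Xins was 362-fold above X1, and X2 was at 4.79% of Xins.

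At mk4.000401.10.01 (minus strand of Contig401, 85671 to 85683) the signal was -4.77 and -4.57 in X1, -2.18 and -1.17 in X2, and 2.48 and 2.43 in Xins. The 2 Xins arrays were nearly level, and Xins minus X1 was 7.13 (SE 0.44). OX_Smed_1.0.23231 (Contig10432, plus strand, 24998 to 25062) had -1.55 and -1.10 in X1, 0.59 and 1.11 in X2, and 4.56 and 6.73 in Xins. All 3 gates were separate there, but the 2 Xins arrays differed by about as much as the means of X1 and X2. At mk4.003138.03.01 (Contig3138, minus strand, 3264 to 3373) the values were -3.92 and -4.43 in X1, -1.92 and -2.34 in X2, and 2.47 and 2.41 in Xins. This site was the fifth by Xins minus X1, at 6.62 (SE 0.39), and both steps were called.

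The fourth of these, dd_smedV4_566_0_1 (Contig6828, minus strand, 2795 to 2864), had a different course. Its signal was -2.98 and -3.86 in X1, -3.57 and -2.95 in X2, and 3.01 and 3.75 in Xins. The X1 and X2 arrays overlapped, and the whole rise of 6.81 (SE 0.49) lay between X2 and Xins. Its X2 signal was 1.0% of the Xins signal on the linear scale, the lowest share among the 126 members.

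dd_smedV4_566_0_1 was also among the 5 members with the lowest X2 position when Xins minus X1 was 3 or more. At dd_smedV4_950_0_1 (Contig4533, minus strand, 23006 to 23082) the signal was -5.27 and -5.84 in X1, -4.51 and -6.55 in X2, and 0.64 and -1.19 in Xins. It was well above background on 1 X1 array only, and its X2 arrays lay on either side of the X1 arrays. At dd_smedV4_364_0_8 (Contig18020, plus strand, 8960 to 8969) the values were -2.50 and -2.72 in X1, -1.89 and -3.14 in X2, and 3.02 and 1.57 in Xins. X1 and X2 overlapped here too, and the Xins arrays were 1 or more apart at both of these sites.

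dd_smedV4_1595_0_1 (Contig683, minus strand, 17185 to 17231) was the most even of the 5. It had -3.94 and -4.27 in X1, -3.62 and -4.11 in X2, and -0.40 and -0.64 in Xins. OX_Smed_1.0.23066 (Contig663, minus strand, 17938 to 18014) had -2.13 and -3.69 in X1, -2.0 and -2.99 in X2, and 1.16 and 0.41 in Xins. At all 5 sites the X1 and X2 arrays overlapped and both Xins arrays lay above all 4 others.

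The members brightest in Xins were already bright in the stem cell gate. mk4.005180.01.01 (Contig5180, minus strand, 5454 to 5542) had 3.95 on each X1 array, 5.04 and 5.42 in X2, and 7.49 and 8.44 in Xins. dd_smedV4_1330_0_1, on the same strand of the same contig (13602 to 13701), had 3.17 and 3.02 in X1, 4.18 and 4.61 in X2, and 7.42 and 8.11 in Xins. dd_smedV4_750_0_1 (Contig259, minus strand, 20060 to 20081) had 1.92 and 3.29 in X1, 3.60 and 5.07 in X2, and 7.39 and 8.42 in Xins. The gates did not overlap at any of these 3 sites. mk4.005180.01.01 and dd_smedV4_750_0_1 were saturated on 2 arrays each, so their highest values may be too low.

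mk4.014976.02.01 (Contig14976, minus strand, 121 to 194) had 2.82 and 3.58 in X1, 3.47 and 3.98 in X2, and 6.39 and 6.83 in Xins. Its X1 and X2 arrays overlapped, and Xins minus X1 was 3.41 (SE 0.44). mk4.010367.00.01 (Contig10367, minus strand, 5926 to 5969) had 2.92 and 3.49 in X1, 4.14 and 4.98 in X2, and 6.16 and 6.67 in Xins.

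**Figure D3:**
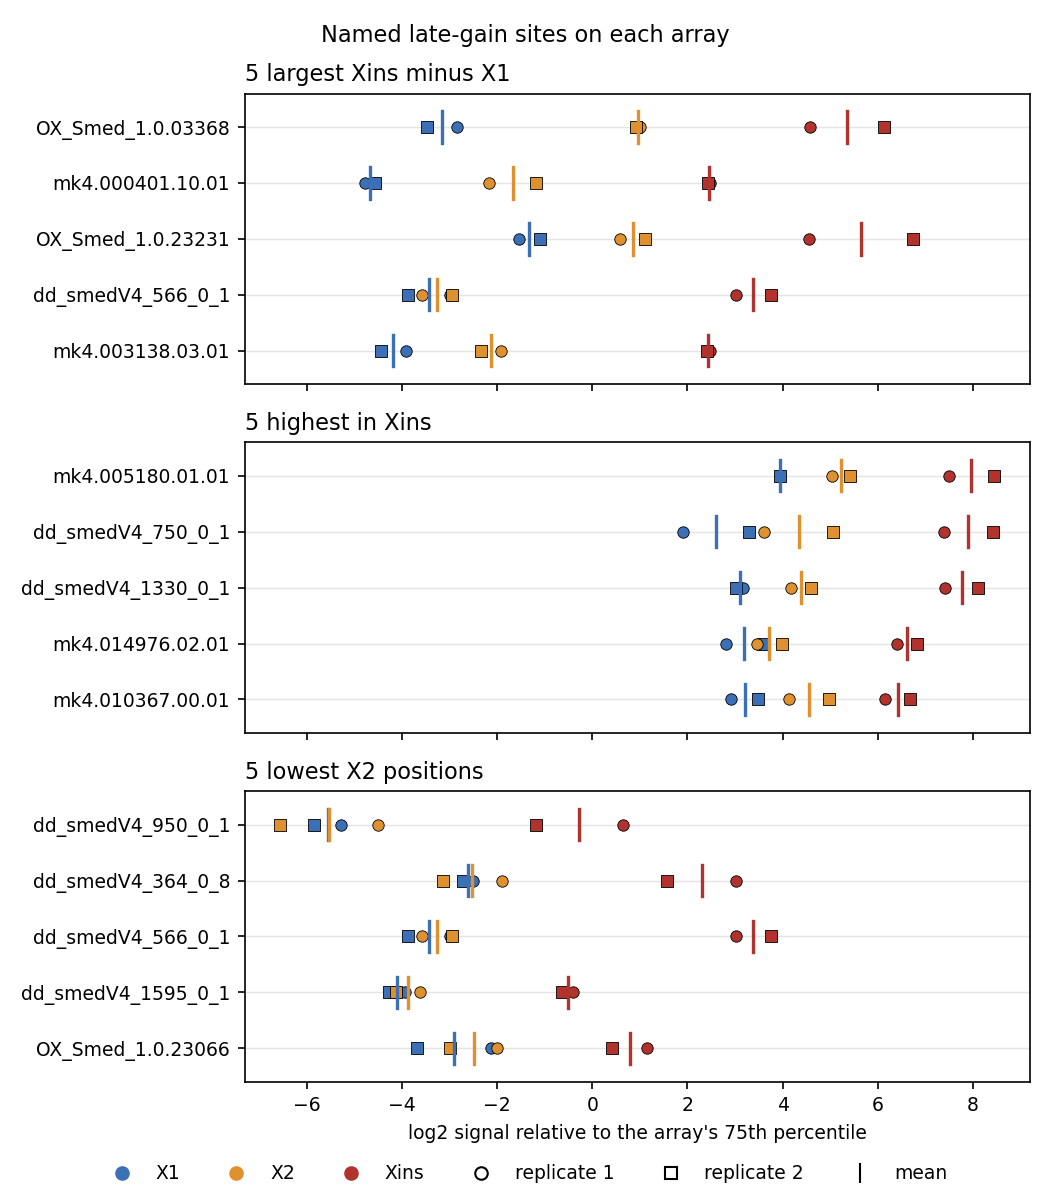
Log2 signal relative to the array's 75th percentile (x axis) for the 5 sites with the largest Xins minus X1, the 5 highest in Xins and the 5 with the lowest X2 position. Each point is an array (circle for replicate 1, square for replicate 2), coloured by gate, and bars are means. Orange X2 points lie among the blue X1 points in the lowest panel and between blue and red in most rows of the upper panels.

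Sites near the limits show how finely the rule divides them. dd_smedV4_1233_0_1 and dd_smedV4_2678_0_1 were just inside the limit on Xins minus X1, at 1.5 and 1.53. dd_smedV4_11354_0_1 and mk4.000036.04.01 were just outside, both at 1.47. At the upper limit of the X2 position, dd_smedV4_6890_0_1 and dd_smedV4_5753_0_1 were inside at 0.49 and 0.50, and OX_Smed_1.0.20311 and dd_smedV4_7052_0_1 were outside at 0.50 and 0.51. At the lower limit, X2 minus X1 was 0.01 and 0.02 at the members dd_smedV4_42809_0_1 and dd_smedV4_6483_0_1. It was -0.02 and -0.04 at mk4.009130.00.01 and dd_smedV4_1924_1_2, which were left out. The gaps in Xins minus X1 and in X2 minus X1 are far below the median SE of 0.47 of a difference between gates. No SE of the X2 position was computed.

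Members detected on both X1 arrays and on 1 had similar median rises. Of the 126, 94 were well above background on all 6 arrays and thus on both X1 arrays, and 32 on 1 X1 array only. The former had a median of -2.95 in X1 and 0.24 in Xins, and the latter -5.76 and -2.97. Their median rises were 3.22 and 3.06, and their median X2 positions 0.31 and 0.32. Every member was well above background on at least 1 X2 array, and 115 were on both. Since a site had to be detected in X1, sites wholly dark there are not among the members. Asking for no detection in X1 would give 174 sites.

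Members with a brighter probe signal in Xins had larger rises. The 52 members with a Xins mean above 0 had a median rise of 4.28, and the 74 at or below 0 one of 2.47. Across the members, Spearman's rho between the rise and the Xins signal was 0.62 (n = 126 sites on the same arrays). The rise contains the Xins signal, and the signal of a site depends on its probe, so the relation says nothing of transcript levels. Between the rise and the X2 position rho was 0.05.

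The 2 Xins arrays differed strongly at 12 members. At these sites, 9.52% of the members, the arrays lay 2 or more apart on the log2 scale, against 2.68% (27) of the 1008 sites passing the detection limits. The 27 include these 12 members. The rule used the Xins mean, so a site could enter through 1 very high Xins array. Nothing is read from the difference in shares. Only 1 member had its X1 arrays that far apart, and 3 their X2 arrays, against 19 and 11 of the 1008 sites. In 11 of the 12, Xins replicate 2 was the higher, as it was in 26 of the 27 sites passing the detection limits. In these 11, replicate 1 exceeded the X1 mean by 0.12 to 5.88 (median 1.04), and replicate 2 by 4.81 to 8.06 (median 5.82). In 7 of the 11, replicate 1 was under the limit of 1.5, so membership rested on replicate 2 alone. OX_Smed_1.0.23231, the third by Xins minus X1, is among the 12. limma called 4 of the 12 for Xins against X1 and 112 of the other 114. In 107 of the 126 members, each Xins array on its own was 1.5 or more above the X1 mean.

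**Figure D4:**
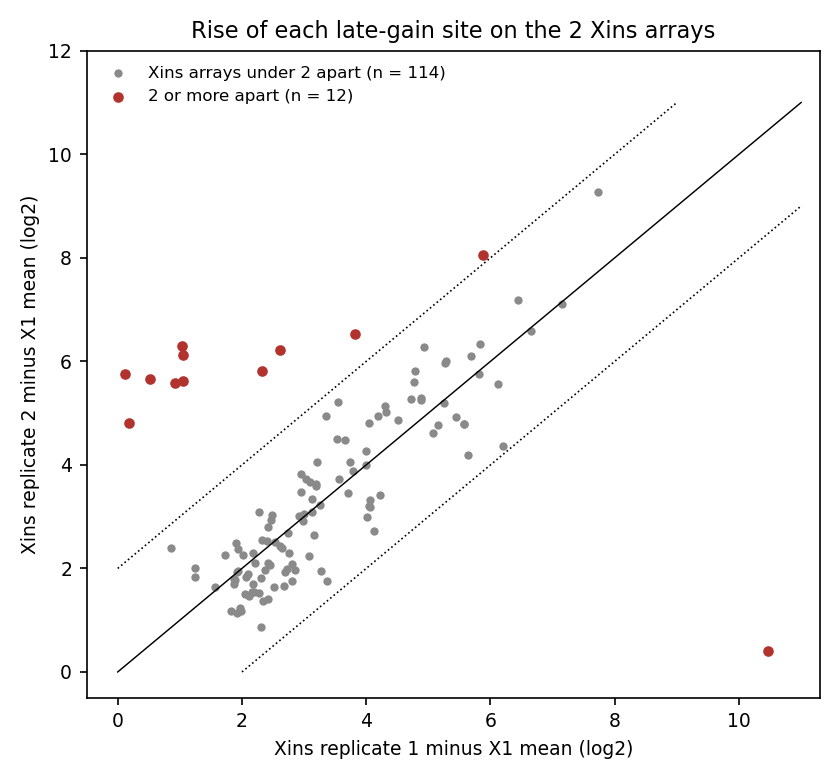
Xins replicate 1 (x axis) and replicate 2 (y axis) minus the mean of X1, in log2 signal, for each of the 126 late-gain sites. The solid line is equality and dotted lines are 2 apart, and red points are the 12 sites beyond them. Of these, 11 lie above the upper dotted line and 1 lies far below the lower one.

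Some of these 12 sites could be checked with further probes of the same sequence, which the array carried for 56 of the 126 members. The sites in this check were chosen after their values were seen. At dd_smedV4_339_0_1 (Contig7156, minus strand, 8958 to 9055) the Xins arrays were at -2.79 and 0.83. The 3 other probes with its sequence read -2.80 to -2.83 on replicate 1 and 0.75 to 0.79 on replicate 2. At dd_smedV4_62417_0_1 (Contig1602, plus strand, 16657 to 16669) the arrays were at -5.49 and -0.35, and the other probe read -5.67 and -0.46. The gap between the arrays was thus present in separate spots. OX_Smed_1.0.22203 (Contig6531, plus strand, 37059 to 37110) behaved alike, with 0.84 and 3.55 against 0.77 and 3.41.

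At mk4.013590.00.01 (Contig13590, minus strand, 7233 to 7236) the further probes read otherwise. Its kept probe was at -2.66 and -3.29 in X1, -1.98 and -2.33 in X2, and 7.50 and -2.57 in Xins. The spot was saturated on Xins replicate 1. The 2 other probes of the same sequence read -2.34 and -2.08 on that array and -2.71 and -2.59 on Xins replicate 2. Their Xins minus X1 was 0.34 and 0.69, below the limit, against 5.43 for the kept probe. Its membership thus rests on 1 spot of 1 array that other spots of the same sequence did not match, and limma did not call it (adjusted p = 0.146).

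Over all members with further probes, Xins minus X1 repeated closely. The 56 members had 99 such probes, of which 97 had Xins minus X1 of 1.5 or more and 87 met every limit on the differences. The median absolute difference in Xins minus X1 from the kept probe was 0.14. The exceptions on the rise were the 2 probes at mk4.013590.00.01. These probes share their RNA samples with the kept probe and test only the spot.

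A different sequence at the same site was available for 41 members. The second sequence overlapped the first by 10 bases or more in 32 of them, with a median shift of 14 nt. It was detected at 27 sites, where 24 of the second sequences had a rise of 1.5 or more and 22 met all limits. Of the other detected ones, 3 had X2 below X1 and 1 had X2 at 0.5 or more. The median absolute difference in Xins minus X1 between the 2 sequences was 0.12. Most detected second sequences thus gave nearly the same difference as the brightest probe.

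Some pairs of sequences differed. At OX_Smed_1.0.10664 (Contig2926, plus strand, 17199 to 17228) the kept sequence had Xins minus X1 of 3.62 and the other 0.99. The latter was detected on no X2 array, and its X2 mean was -6.60 against -4.60 for the kept one. At dd_smedV4_2685_0_1 (Contig9680, plus strand, 9734 to 9806), one of the sites with distant Xins arrays, the 2 sequences gave 2.94 and 3.90. At dd_smedV4_3689_0_1 (Contig4225, minus strand, 7298 to 7315) they gave 5.18 and 5.96. The second sequence of OX_Smed_1.0.03368, the site with the largest rise, had an Xins mean of -5.41 against 5.35 for the first. It was well above background on no X1 and no X2 array.

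Where the 2 sequences shared no run of bases, the values were close at 3 named sites. The naming rule picked the pairs that agreed best, so their closeness is a description only. At dd_smedV4_83_0_1 (Contig7635, plus strand, 9094 to 9231) they gave 2.53 and 2.47. At OX_Smed_1.0.23139 (Contig249, minus strand, 148466 to 148538) they gave 3.38 and 3.44, although the Xins means were 0.20 and -2.30. At mk4.016522.00.01 (Contig16522, plus strand, 9727 to 9793) they gave 1.78 and 1.94. The level of a site thus depended on the probe, while the difference between gates was repeated at these 3 sites. At the other members without a shared run, the second sequence missed the detection limits. Its rise was at times far lower, with 0.28 against 6.08 at OX_Smed_1.0.06971 and 0.11 against 4.38 at mk4.001374.03.01. It was closer at dd_smedV4_12585_0_1, with 2.62 against 2.96. These sites were named after their values were seen.

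Some members are near-identical in sequence to others, so their signals cannot be told apart with confidence. A run of 24 nt or more was shared with the probe of another site in 14 members, in 5 pairs of members and in 4 members paired with a non-member. OX_Smed_1.0.06971 (Contig4422, plus strand, 15041 to 15128) and mk4.006902.04.01 (Contig6902, plus strand, 34981 to 35065) shared 47 nt and had rises of 6.08 and 5.89. mk4.011129.00.01 (Contig11129, plus strand, 761 to 790) and mk4.014181.00.01 (Contig14181, minus strand, 293 to 319) shared 55 nt, with rises of 4.72 and 4.57. In the sequences printed above, each of these pairs reads as the same stretch shifted by a few bases.

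dd_smedV4_15365_0_1 (Contig3124, plus strand, 57999 to 58030) and dd_smedV4_4905_0_1 (Contig7760, plus strand, 26985 to 27006) shared 50 nt, with rises of 4.85 and 4.96. Both were among the 9 members called for X2 against X1, which therefore hold 1 pair of near copies. OX_Smed_1.0.07149 (Contig15469, plus strand, 6832 to 6863) and dd_smedV4_43369_0_1 (Contig6039, plus strand, 44318 to 44347) shared 46 nt, with rises of 1.94 and 1.79. The probes of mk4.005180.01.01 and dd_smedV4_1330_0_1 shared only 24 of 60 nt and are not near copies. Counting each pair once, this one included, leaves 121 members.

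One pair lay across the boundary of the rule. The probe of dd_smedV4_5480_0_1 (Contig20788, minus strand, 1434 to 1443) had the same 54 nt as that of mk4.005282.05.01 (Contig5282, minus strand, 32458 to 32467). The first had an X2 position of 0.48 and counted as late-gain, and the second one of 0.57 and counted as early-gain. Their rises were 2.16 and 2.10. The same sequence was thus placed in both classes.

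Few members shared a contig with another member. Of the 126, 80 were the only site of the array on their contig, and 14 had another site there that passed the detection limits. The share of such lone sites over the whole array was not computed, and the sample titles speak of distal polyadenylation sites. The count of 80 is therefore not read as a trait of the members. The 15 other sites that passed the detection limits lay at least 8060 nt away, with a median of 15723 nt. Among the 15, 7 (46.7%) had a rise of 1.5 or more, against 24.5% of the sites passing the detection limits, and 4 of the 7 were members. A fall of 1.5 or more was found at 3 of them (20%, against 16.4%). With 15 sites, 4 of them members, nothing can be read from these shares.

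Both members on Contig5180 were among the brightest in Xins and had X2 positions of 0.32 and 0.28. Contig14976 held the other pair. Besides mk4.014976.02.01 it carried dd_smedV4_1320_0_1 on the plus strand (15917 to 15930), with -6.10 and -5.93 in X1, -4.89 and -4.66 in X2, and -3.02 and -2.96 in Xins. The latter was well above background on 1 X1 array and much dimmer than its partner, though its rise of 3.02 was close to the 3.41 of the other. The gates did not overlap at dd_smedV4_1320_0_1.

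The probe sequences and the mapped extents of the sites were not used by the rule. A site is given by its first and last base, and its width is the stretch between them. The members had a median width of 29.5 nt (quartiles 13.25 and 66.5), against 17 nt in the 882 other sites passing the detection limits and 3 nt over all 5054 sites. Sites wider than 50 nt made up 30.2% of the members (38), 31.1% of the early-gain sites (23 of 74) and 21.7% of the other detected sites. The share in members was close to that in early-gain sites, and no test was made.

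Wider sites had brighter probes. The signal of a site depends on its probe, as the second sequences showed, so this concerns the signal and not the transcript level. Spearman's rho between width and the Xins signal was 0.29 over the 126 members and 0.35 over the 1008 sites passing the detection limits. Among sites with a Xins mean above 0, the median width was 47 nt in 52 members and 37 nt in 193 others. Among sites at or below 0 it was 24 nt in 74 members and 14 nt in 689 others. Sites wider than 50 nt were 42.3% and 39.4% in the brighter class, and 21.6% and 16.7% in the dimmer one. Narrow sites also had shorter probes among the named sites, with 45 nt at a width of 1 nt, 52 nt at 8 nt and 60 nt at 18 nt. The median probe length was 60 nt in the members and in the other detected sites, and 47 nt over all sites. The parts of probe length and probe signal in the width of the members were not tested. Between width and the X2 position rho was 0.01.

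**Figure D5:**
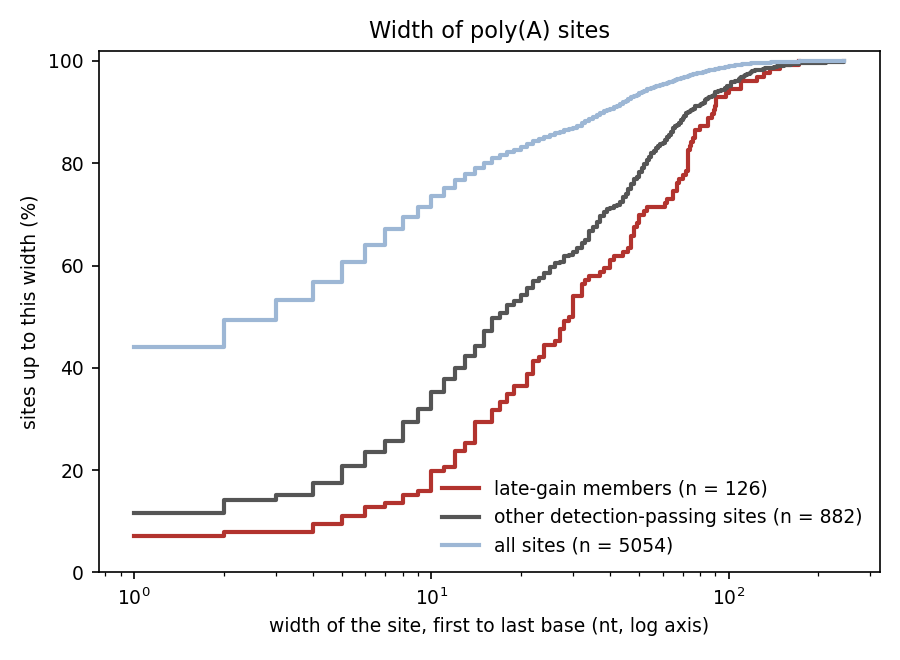
Share of sites up to a given width (y axis, %) against the width from first to last mapped base (x axis, nt, log axis), for the 126 late-gain members, the 882 other sites passing the detection limits and all 5054 sites. The members' curve lies to the right of the others, with medians of 29.5, 17 and 3 nt.

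The poly(A) signal was read where the end of a probe lies near the cleavage site, at sites of at most 15 nt. Of the 37 such members, 13 (35.1%) had AATAAA starting 10 to 35 nt from the 3′ end, against 37.0% of 416 other detected sites and 45.7% of all 4050 narrow sites. ATTAAA without AATAAA was present in 3 (8.11%), against 3.85% and 8.35%. Neither hexamer was found in 21 (56.8%), against 59.1% and 46.0%. The share with AATAAA in members was close to that in other detected sites, whereas the share with ATTAAA rests on 3 members, and no test was made. AATAAA began a median of 25 nt before the 3′ end in the members, 25 nt in the other detected sites and 23 nt over the array.

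Within the members, the 13 narrow sites with AATAAA had a median rise of 2.52 and a median X2 position of 0.32. The 3 narrow sites with ATTAAA had 2.31 and 0.19, and the 21 with neither hexamer had 2.66 and 0.34. The 51 sites of 16 to 50 nt had 2.97 and 0.25, and the 38 wider ones had 3.68 and 0.32. No test was made of these differences. Among the 5 members with the largest rise, the probes of OX_Smed_1.0.23231 and dd_smedV4_566_0_1 carried AATAAA. Among the 5 with the lowest position, dd_smedV4_566_0_1 and dd_smedV4_1595_0_1 carried AATAAA, and dd_smedV4_364_0_8 carried ATTAAA.

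The composition of the probes was near that of other detected sites. The median GC content was 26.7% in the members, 26% in the other detected sites and 21.6% over the array, where probes were also shorter (median 47 nt against 60 nt). In the last 45 nt, read on the transcript strand as printed, ATTTA, the core of AU-rich elements, was found in 23.8% of the members, 25.4% of the other detected sites and 32.03% of all sites. TTTTTT was found in 6.35%, 8.28% and 11.52%. TGTAAATA, a motif known to be bound by Pumilio proteins in other animals, was found in 1 member (0.794%), 1.36% and 1.52%. The shorter TGTA, which TGTAAATA contains, was found in 15.9%, 25.3% and 28.8%, and in 21.6% of the early-gain sites. A match is a description of these letters only, and none of these shares was tested.

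The 74 early-gain sites had a median rise from X1 to Xins of 2.63, with 1.94 of it seen by X2, against 3.16 and 0.84 in the members. The 47 sites with X2 below X1 had a median rise of 2.12, with a median X2 minus X1 of -0.62. Since the classes were cut from these values, no test of a difference between them was made. Both X1 arrays and both X2 arrays enter each class, so the classes share every sample.

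All 6 arrays lay on 1 slide, in 2 rows. Row 1 held replicate 1 of X1 and X2, and row 2 held replicate 2 of X1 and X2 and both Xins arrays. Within row 2, the members' median Xins minus X1 was 3.03 and their median X2 minus X1 was 0.88, and 120 of 126 had a rise of 1.5 or more. X2 was above X1 in 112 members in row 2 and in 122 members in row 1, where the median X2 minus X1 was 0.92. The median X2 position was 0.27 in row 2. Because the members were chosen on means that include these arrays, the counts by row are a description and no test of the slide row.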

How the data were processed

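The data are 6 one-colour arrays of sorted planarian cells, 2 per gate, grouped and numbered by the labels. Oligo-dT selected mRNA (Qiagen kit) was amplified from a T7 primer and labelled with Cy3, per the labels' protocols. The authors deposited scanner tables of linear intensity; per the file headers, Feature Extraction 11.5.1.1 subtracted the background, detrended the signal and put a surrogate where it was too low. The authors' deposited value table was read as natural log from its slope of 0.694 to 0.695 per log2 unit (0.719 for X2 array 1, whose correlation with the scanner signal was 0.987 against 0.998 to 0.999) and served as an alternative; its column medians were 0.981 to 1.31, and how it was normalized or centred is not stated. Of tools, the submitters' processing notes name limma. Coordinates are those of the files, whose genome build no source used here gives.

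Control spots and 11 spots marked as outliers were left out, and saturated spots were kept. Values are log2 of the processed signal, averaged per probe, minus the array's 75th percentile over the 1914 probes marked well above background on every array; a probe counted as marked where all its spots were. Each site was represented by its brightest probe. limma 3.58.1 in R 4.3.3 was fitted to the 1349 sites detected on both arrays of 1 gate or more, with a mean per gate, and was tested on simulated data. Named sites are the 5 with the largest Xins minus X1 and the 5 highest in Xins. The 5 with the lowest X2 position at a rise of 3 or more were also named. So were the 2 on each side of each limit, contigs with 2 members, and 6 sites with 2 sequences. Of these 6, 3 had detected sequences whose rises differed most, and 3 agreed best among those overlapping least. Others are said to be chosen after their values were seen. The members, the limits and the lists were chosen with earlier results of these data known. Planned marker genes could not be matched, since the description cells hold a placeholder. Figures were drawn with matplotlib 3.10.9. The number of arrays limits the precision.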

Additional observations from a re-analysis of the deposited data

How the results depend on the processing

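Normexp with quantile normalization changes the starting signal, the background correction, its offset of 50 and the normalization together. The number of members was 126, and 64 (56 of them among the 126) in that setting. It was 185 in the authors' table, 84 with spike-in scaling, 89 within slide row 2 and 93 to 129 with 1 array left out. In fits without 1 array, the lone array of that gate is assumed to vary like the other gates. Fewer of all sites tested were then called higher in each contrast that used that gate. Spike-in scaling, row 2 alone, any-spot detection and leaving out the 12 sites with distant Xins arrays (114 members) were chosen after seeing the data. Members called for Xins against X1 (116) were 99 to 116 with 1 array left out and 67 with no filter on dim probes. Members called for X2 against X1 (9) were 0 to 8 with 1 array left out, 19 with slide row as a block, 1 with no filter and 17 with an intensity trend. With the replicate number as a block they were 46; the labels do not say that a number marks a shared animal or day, and deviations from the gate means of same-numbered arrays correlated at 0.353 to 0.573 across sites. The block gave 118 and 110 for the other 2 contrasts. Members called for Xins against X2 (84) were 49 to 81 with 1 array left out, 22 with spike-in scaling and 25 with no filter. The median X2 position (0.315) was 0.267 to 0.343 with 1 array left out, 0.271 in row 2, 0.184 after normexp and 0.501 with spike-in scaling. The share of AATAAA in narrow members (35.1%) ranged from 24% to 35.1%. Calls among all sites moved too. Higher calls for X2 against X1 were 63 of 1349 sites, 87 with slide row as a block and 74 with an intensity trend. They were 216 with the replicate block, which gave 434 (from 332) and 300 (from 192) for the other 2 contrasts. With no filter, 171, 15 and 60 of 5054 sites were called higher for Xins against X1, X2 against X1 and Xins against X2. Spike-in scaling gave 63 for Xins against X2. The members' counts moved the same way in these settings. The causes of these changes were not tested.

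Scaling also moved the balance of all calls. Higher calls were 49.9% of those for Xins against X1, and 67.3% in the authors' table. For X2 against X1 they were 75%, 64.9% with the percentile over all probes, 50% after normexp and 89.7% with spike-in scaling. For Xins against X2 they were 55.3%, and 80% in the authors' table. The median X2 minus X1 of all tested sites was -0.02 and 0.59 with spike-in scaling; that of Xins minus X1 was -0.17 and 0.32 in the authors' table. All 280 recomputed Xins minus X1 values of the 28 named members were above 0, and 259 were 1.5 or more. X2 minus X1 changed sign in 27 of 280 values, at 9 of these members. Detection limits the rest, since no array had more than 28.5% of its probes well above background.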
